A study of Danio rerio with 12 samples.

Results

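The comparison described here set 3 libraries of regenerating zebrafish caudal fin taken at 2 days post amputation (2 dpa) against 3 libraries of uncut fin (0 dpa), 6 of the 12 libraries of the series. Fins came from adult AB-Tu zebrafish (Danio rerio), with RNA of 6 fish pooled for every library. The series also holds 3 libraries each at 3 and 10 dpa, which entered the statistical model so that all stages shared 1 estimate of the spread. No genotype, transgene or drug is given in the labels for any of these groups, so day after amputation is the named difference between them. The 0 dpa fins were cut to obtain them but had not regrown. Members of a pool cannot be told apart, and the spread reported is that between pools.

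A zebrafish fin regrows from a stump. Epidermis closes over the wound, stump cells lose mature features and divide, and they gather as a blastema beneath the thickened wound epidermis. By 2 dpa the blastema is forming, and dividing cells need new protein, membrane and matrix. The best known wound and blastema genes are left aside below in favour of the wider set of expressed genes.

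Total counts ran from 8833337 to 13436213 in the 0 dpa libraries and from 12744114 to 20296502 in the 2 dpa libraries. In a principal component analysis of the 6 libraries the first component carried 74.1% of the variance and separated the stages, with 0 dpa from -98.5 to -76.3 and 2 dpa from 82.6 to 93.95. Every pair of libraries within a stage differed by more than counting error, and chi-square values divided by their degrees of freedom ran between 25.8 and 42.2 at 0 dpa and between 39.6 and 113 at 2 dpa. The largest value was between 2 dpa replicates 1 and 2. Of 13 tested genes listed here as markers of caudal fin position, 6 fell (46.2%) and 1 rose (7.7%), against 24.1% and 22.9% over all tested genes. The 1 that rose was msx1b. Its libraries overlapped between the stages. The rise was not called without 0 dpa replicate 1 or 2 or without 2 dpa replicate 1 or 2. The posterior gene hoxa13b (ENSDARG00000036254), not called, was at 92.6, 97.9 and 98.8 CPM in the 0 dpa replicates 1 to 3 and at 85.2, 171 and 89.2 CPM in the 2 dpa replicates. Other posterior hox genes differed from it, as hoxd13a (log2 change -1.51) and HOXC13 (-0.88) fell, while HOXB13 (-0.54) was not called. CPM is the usual count scaled to the library size, here after TMM normalisation, and 3 values in a row are always replicates 1, 2 and 3. Markers of skeletal muscle summed, over 54 genes, to between 180.4 and 191 CPM in uncut fin and between 103 and 129 CPM at 2 dpa, with 0 counts throughout in 13 of them at 0 dpa and in 12 at 2 dpa. Erythrocyte markers summed, over 19 genes, to between 59.2 and 73.1 CPM in uncut fin and between 38.3 and 65.3 CPM after amputation.

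Of 16612 genes tested, 3811 rose (22.9%) and 4010 fell (24.1%) at 2 dpa by edgeR's quasi-likelihood test at an adjusted p under 0.05. These percentages are the background against which the counts of each gene list are given. By at least 2-fold, 2531 rose and 3142 fell. The 3 libraries of one stage all lay above the 3 of the other in 4415 genes (26.6%) that were higher at 2 dpa and in 4659 (28.0%) that were lower. The median log2 change over all tested genes was 0.03. Symbols in capitals are those of the human gene, and do not tell zebrafish copies apart.

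Outside the best known wound and blastema genes, the 15 largest rises included several receptors and enzymes of small signalling molecules. hrh3 (ENSDARG00000035942), a histamine receptor, was at 3.44, 0.864 and 1.86 CPM in uncut fin and at 127, 104 and 54.2 CPM at 2 dpa (edgeR adjusted p = 2.38e-06). TPH1 (ENSDARG00000036082), which makes the first step of serotonin synthesis, was at 4.5, 1.12 and 1.28 and then 124, 149.5 and 117 CPM. VIPR1 (ENSDARG00000059058), a receptor for vasoactive intestinal peptide, went from 0.655, 0 and 0.465 to 18.7, 22 and 19.3 CPM. Only genes whose 3 and 3 libraries did not overlap entered this ranking, so the separation of the stages in these genes was set by the choice. FREM3 (ENSDARG00000074677), of a family of extracellular matrix proteins under the epidermis, had the highest mean of the 15 at 2 dpa, with 689.8, 502 and 382 CPM against 13.8, 2.33 and 2.21 CPM before. Transcripts of cxl34c, a chemokine ligand gene, averaged 383 ± 136 CPM (SD, n = 3) against 4.3 ± 3.41 CPM. CDH17, a cadherin, rose 46.9-fold from 0.0948 ± 0.0186 to 4.79 ± 1.78 CPM. The water channel AQP4 was not detected in uncut fin (0 counts in each library) and stood at 1.66, 1.2 and 1.25 CPM at 2 dpa, a low level.

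The 15 largest falls included a keratin, a lymphatic receptor and an apolipoprotein gene. A keratin, krt1-19e (ENSDARG00000090268), was at 1017, 1508 and 734 CPM at 0 dpa and at 10.1, 2.93 and 2.97 CPM at 2 dpa (edgeR adjusted p = 1.13e-06). foxn1 (ENSDARG00000011879), a forkhead factor needed for hair and thymus epithelium in mammals, went from 9.66, 23.1 and 13.7 to 0.101, 0 and 0.0781 CPM. lyve1a (ENSDARG00000075833), a hyaluronan receptor of lymphatic vessels, went from 9.17, 5.79 and 3.95 to 0.0503, 0 and 0 CPM. Transcripts of foxn1 and lyve1a were close to undetected in all 3 libraries at 2 dpa. As for the rises, genes whose libraries overlapped between the stages were left out of this ranking. The chemokine gene ccl27b fell from 95.9 ± 42.2 to 0.541 ± 0.449 CPM, and rasef, a small GTPase with calcium-binding hands, from 11.6 ± 2.45 to 0.0168 ± 0.029 CPM. apoda.1, an apolipoprotein D gene, was at 3.77, 3.02 and 3.72 CPM at 0 dpa and had 0 counts in each 2 dpa library. In bulk fin RNA, fewer cells of a type and less RNA per cell cannot be told apart, which holds for every fall given here.

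**Figure D1:**
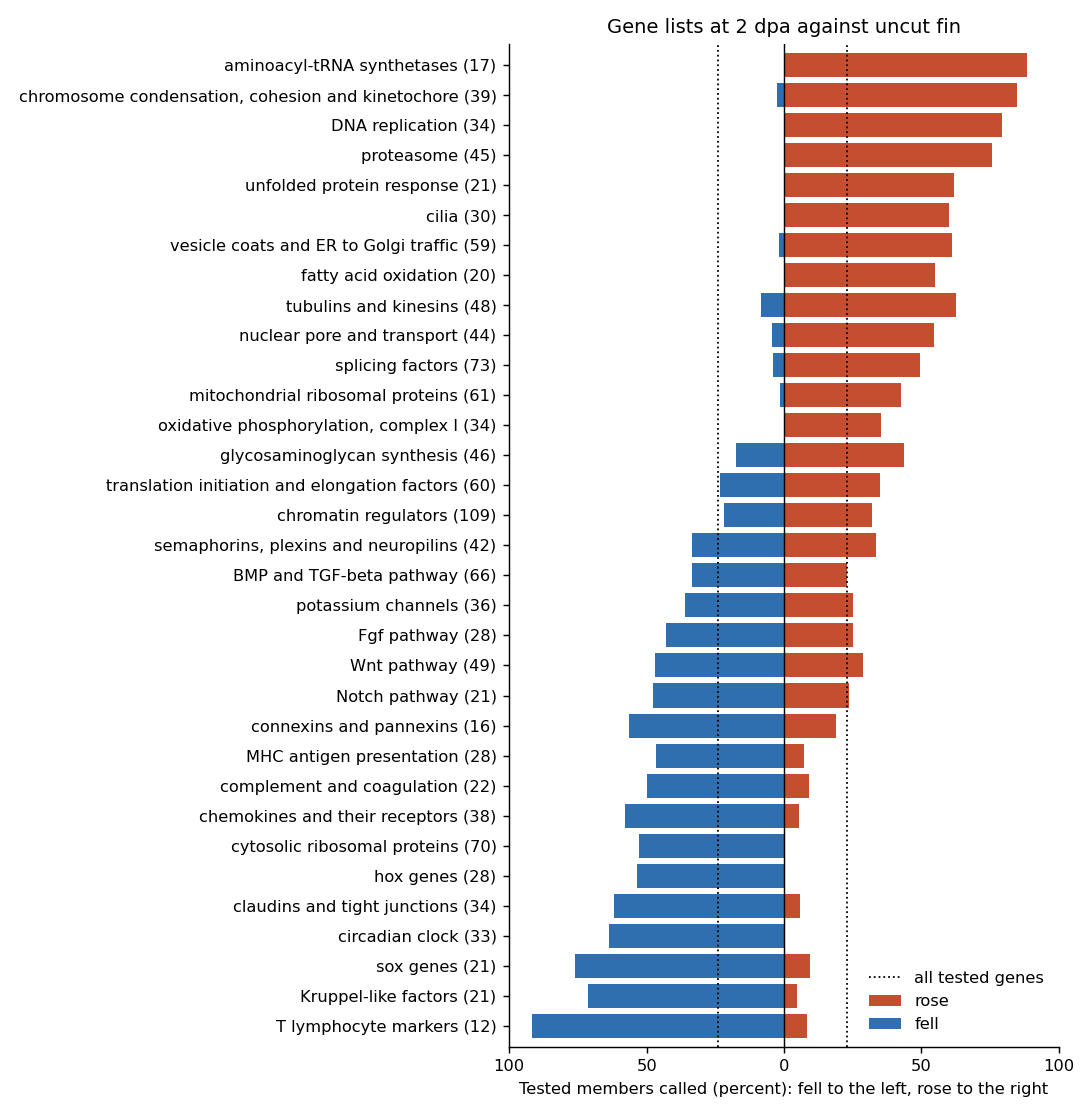
Share of tested members of 33 gene lists that rose (right, in percent) or fell (left) at 2 dpa against uncut fin, with the number tested in brackets. Dotted lines mark the shares over all 16612 tested genes, 22.9% and 24.1%. Aminoacyl-tRNA synthetases stand at the top and T lymphocyte markers at the bottom.

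Genes of protein production moved in opposite directions depending on the step. Cytosolic ribosomes hold a large and a small subunit built from many proteins, aminoacyl-tRNA synthetases load amino acids onto tRNA, and mitochondria have ribosomes of their own. Of 70 tested cytosolic ribosomal protein genes 37 fell, with a median log2 change of -0.68 against 0.03 over all genes. Together they held 114959, 111281 and 110005 CPM at 0 dpa and 63356, 63389 and 67539.6 CPM at 2 dpa, so their summed share of the library was lower in all 3 libraries. rpl32 (ENSDARG00000054818) fell 2.32-fold, from 7976 ± 775 to 3435 ± 359 CPM (edgeR adjusted p = 0.00318), and RPL6 (ENSDARG00000058451) 2.28-fold, from 6536 ± 939 to 2866 ± 651 CPM.

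By contrast, 15 of 17 tested aminoacyl-tRNA synthetases rose (median log2 change 1.49). CARS1 (ENSDARG00000036164), which charges cysteine tRNA, was at 12.9, 6.65 and 16.2 CPM at 0 dpa and at 36.9, 74.9 and 46.7 CPM at 2 dpa. It rose 4.46-fold (log2 change 2.16 ± 0.33, SE, edgeR adjusted p = 1.60e-04). YARS1, for tyrosine, rose 3.45-fold and RARS1, for arginine, 3.2-fold. MARS1, for methionine, was not called (48.1 ± 22.6 and 73.8 ± 13 CPM). Mitochondrial ribosomal proteins also went up, with 26 of 61 risen and 1 fallen (mrpl58). That count was 13 without 0 dpa replicate 2 and 16 without 2 dpa replicate 2, and the fall was not called without 0 dpa replicate 1 or 2 or without 2 dpa replicate 1 or 3. MRPL10 rose 2.52-fold, from 4.31 ± 0.162 to 10.9 ± 0.718 CPM.

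Translation factors were split. Of 60 tested initiation and elongation factors, 21 rose and 14 fell (9 fell without 2 dpa replicate 1). Their fallen share, 23.3%, was near the 24.1% over all tested genes. EIF5A2 (ENSDARG00000056186), a factor that carries the amino acid hypusine and helps ribosomes past difficult stretches, was at 205, 214 and 396 CPM before amputation and at 728, 1404 and 1130.1 CPM at 2 dpa, a rise of 4.00-fold. eif4e1c, which belongs to the cap-binding eIF4E family, rose 4.06-fold, while EIF4E2, another member of that family, fell 3.17-fold from 16.6 ± 2.4 to 5.24 ± 0.316 CPM. In that family eif4eb and EIF4E3 also rose, EIF4E was not called and EIF4E2 alone fell. The largest falls of the list were in the elongation factor genes EEF2 (log2 change -2.81) and an EEF1A1 (-2.12). Among 14 tested genes with names that start in eef, some outside this list, 6 fell and 2 rose.

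Proteasome genes were higher too. The proteasome is a barrel of alpha and beta subunits with regulatory caps, and 34 of 45 tested subunit genes rose (median log2 change 1.26). PSMB7 (ENSDARG00000037962), the subunit with trypsin-like activity, was at 9.17, 4.67 and 14.1 CPM and then at 40.6, 107 and 60.5 CPM, the largest rise of the list (7.51-fold, edgeR adjusted p = 5.24e-04). PSMD1 of the cap rose 3.92-fold, from 79.4 ± 18.3 to 311 ± 77.6 CPM, and PSMB5, with chymotrypsin-like activity, 3.59-fold. The 5 genes of the immunoproteasome and its activator, which interferon induces in mammals, were not called. PSMB8 was at 113, 159 and 124 CPM at 0 dpa and at 95.9, 78.7 and 101 CPM at 2 dpa, with no overlap, and PSMB10 at 54.8 ± 2.35 and 57 ± 3.43 CPM. PSMB9 was at 10.4, 45.5 and 14.2 CPM at 2 dpa, high in replicate 2 alone. The activator subunits PSME1 and PSME2 were at 97.6 ± 19.7 and 80.2 ± 13.3 CPM at 0 dpa and at 110.3 ± 20.7 and 79.9 ± 14.6 CPM at 2 dpa. These 5 were grouped after their values were seen. Of the wider interferon and antiviral list, 4 of 36 members rose and 2 fell. Both shares (11.1% and 5.6%) were below those over all tested genes (22.9% and 24.1%).

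The unfolded protein response, which adjusts the endoplasmic reticulum to its protein load, had 13 of 21 tested genes risen, among them HSP90B1, PDIA4 and DNAJB11. The 8 not called were ern1, EIF2AK3, HERPUD1, EDEM1, SYVN1, DERL1 and the genes named DNAJB9. MANF (ENSDARG00000063177), a secreted protein released on such stress, rose 6.67-fold, from 3.63 ± 0.785 to 24.3 ± 5.21 CPM. DDIT3 (CHOP), which promotes death of stressed cells and stands in the list of amino acid response genes, averaged 30.1 ± 4.37 CPM at 0 dpa and 16.5 ± 5.25 CPM at 2 dpa, a fall called in 11 of 13 alternative analyses. In that list 6 of 15 tested members rose (40.0%) and 2 fell (13.3%), against 22.9% and 24.1% over all tested genes. Its fallen count ran from 1 to 3 in the alternative analyses. Autophagy genes fell at about the background share of 24.1%, with 8 of 30 fallen (5 without 0 dpa replicate 2) and 2 risen (1 without 0 dpa replicate 1). SQSTM1 (ENSDARG00000075014), the p62 receptor that hands tagged protein to autophagosomes, was at 822, 814 and 709 CPM in uncut fin and at 142, 87.4 and 136 CPM at 2 dpa, a fall of 6.41-fold. gabarapb, of the family coupled to autophagosome membranes, fell 2.81-fold.

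**Figure D2:**
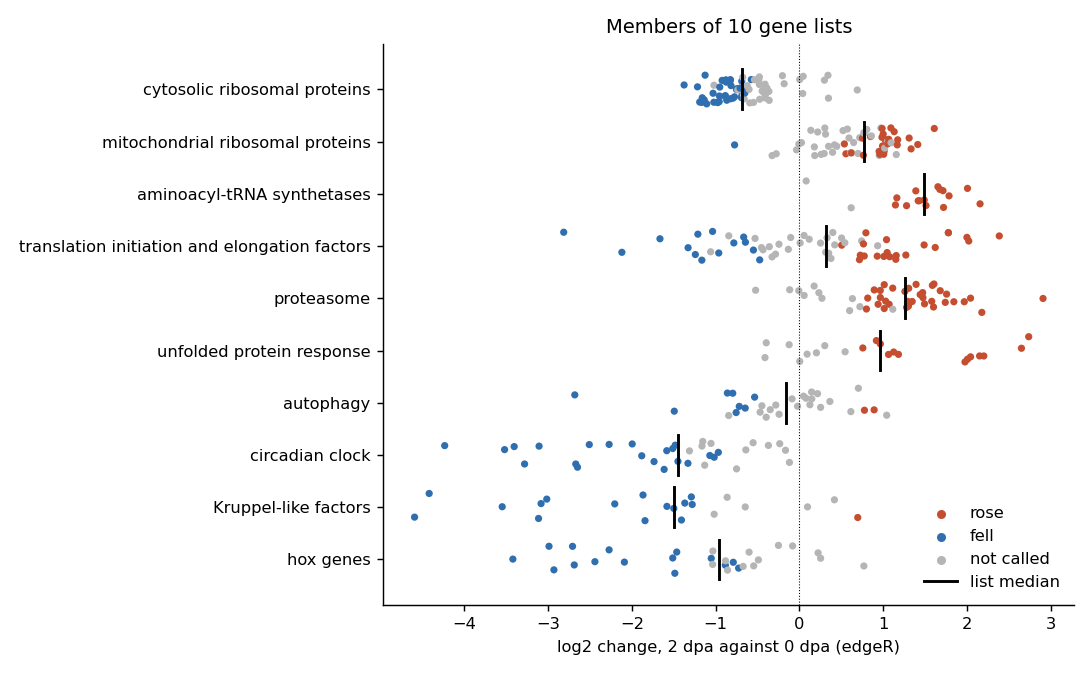
log2 change at 2 dpa against 0 dpa of every tested member of 10 gene lists, 1 point per gene, coloured by call, with a vertical line at each list's median. Cytosolic ribosomal proteins lie to the left (median -0.68) and aminoacyl-tRNA synthetases (1.49) and the proteasome (1.26) to the right.

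RNA handling genes rose more often than the background of 22.9%. Splicing factors rose in 36 of 73 tested members and fell in 3, and without 0 dpa replicate 2 the risen count was 20. SNRPE, a core protein of spliceosomal particles, averaged 2.38 ± 0.891 and 7.03 ± 3.39 CPM. SF3B1 (ENSDARG00000056138), which recognises the branch point, fell 2.2-fold from 542 ± 73.2 to 246 ± 21.6 CPM, so the most abundant of the 3 falls was in a core factor. Among nuclear pore and transport genes 24 of 44 rose. KPNA2 (ENSDARG00000038066), an importin alpha that carries cargo into the nucleus, was at 34.1, 17.7 and 32.8 CPM and then at 372, 421 and 256 CPM, a rise of 12.4-fold (edgeR adjusted p = 1.62e-06). NUP210, a membrane ring protein of the pore, rose 6.52-fold.

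Genes of DNA copying and chromosome segregation, which serve dividing cells, rose in 27 of 34 and 33 of 39 tested members, the first count falling to 16 without the 4 libraries numbered 2. FEN1, which trims flaps on the lagging strand, rose 4.05-fold, and knl1, a scaffold of the kinetochore, 7.84-fold from 2.01 ± 1.21 to 15.4 ± 4.94 CPM. The single fall of the segregation list was in RAD21 (ENSDARG00000035655), a gene named for the cohesin ring, at 7.37, 7.35 and 5.93 CPM before and 1.41, 0.665 and 0.703 CPM after amputation. Among chromatin regulators 35 of 109 rose and 24 fell (14 without the 4 libraries numbered 2). Their fallen share, 22.0%, was near the 24.1% over all tested genes. EZH2, the methyltransferase of Polycomb complex 2, rose 4.84-fold from 7.51 ± 1.95 to 36.3 ± 10.6 CPM. Within Polycomb complex 1, cbx7a fell 4.61-fold from 63.6 ± 19.1 to 13.8 ± 0.912 CPM.

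Microtubule and cilium genes were mostly higher. Of 48 tubulins and kinesins, 30 rose and 4 fell. tubb5 (ENSDARG00000037997), a beta-tubulin, was at 17, 4.06 and 14.4 CPM and then 266, 185 and 177 CPM, a rise of 17.7-fold, and the alpha-tubulin tuba1b rose 9.76-fold. tuba8l2, another alpha-tubulin and more abundant in uncut fin, fell 2.25-fold from 514 ± 51.6 to 229 ± 133 CPM. Cilia are built by intraflagellar transport, and 18 of 30 tested cilium genes rose (9 with the 4 libraries numbered 2 of all stages left out). IFT52 of the transport complex was at 4.42, 6.39 and 6.62 CPM before and 13, 13.5 and 13.7 CPM at 2 dpa, a rise of 2.31-fold. BBS7 (ENSDARG00000059911), of the complex that moves membrane proteins into cilia, rose 4.83-fold from 1.23 ± 0.0756 to 5.98 ± 1.35 CPM. No cilium gene fell by edgeR with all libraries, at an unadjusted p under 0.05 (0 genes) or by DESeq2 (0), and 1 fell without 0 dpa replicate 3 or without 2 dpa replicate 1. Of 71 actin regulators 18 rose (25.4%), near the 22.9% over all tested genes. In the same list 12 fell (16.9%), under the 24.1% over all tested genes. Among the fallen was profilin 1 (pfn1), at 6137, 6236 and 4314 CPM before and 1027, 849 and 1484 CPM at 2 dpa.

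Energy metabolism was uneven between its parts. Tricarboxylic acid cycle genes rose in 10 of 16 tested members and fell in 1. The risen count ran from 5 to 10 in the alternative analyses. The fall was not called without 0 dpa replicate 1 or 3 or without 2 dpa replicate 1. Mitochondrial fatty acid oxidation genes rose in 11 of 20 tested members, and in 7 without 0 dpa replicate 1. HADHA (ENSDARG00000060594), a subunit of the trifunctional enzyme of this pathway, was at 43.4, 36.8 and 44.3 CPM and then at 172, 157 and 145 CPM, a rise of 3.8-fold (edgeR adjusted p = 2.70e-06). Of 34 complex I genes 12 rose, with NDUFA10 up 2.9-fold. Complexes II and III rose in 6 of 13, and complexes IV and V rose in 9 of 32, near the background of 22.9%, and fell in 3. The 13 mitochondrially encoded genes are listed at 0 counts in the 6 libraries and were not tested. In glycolysis 8 of 19 members rose and 3 fell, and 5 rose without 0 dpa replicate 3 or without 2 dpa replicate 3. SREBF1 (ENSDARG00000067607), a regulator of lipid synthesis genes, fell 3.17-fold from 150.2 ± 26.5 to 47.4 ± 9.57 CPM. DGAT2, which makes triglyceride, was at 13.3, 13 and 7.55 CPM at 0 dpa and at 0.0503, 0.199 and 0 CPM at 2 dpa. Of 7 creatine handling genes 4 rose, among them the transporter SLC6A8 (7.28-fold) and the mitochondrial creatine kinase CKMT1B (4.61-fold). The 2 that fell (1 without 0 dpa replicate 3) were ckma, the creatine kinase of muscle, at 3.77, 1.81 and 15.9 and then 0.653, 1.4 and 0.312 CPM, and GATM, which makes a creatine precursor, at 1.41 ± 0.43 and then 0.284 ± 0.0609 CPM. In the list of oxidative stress and glutathione genes 12 of 38 rose (7 without 0 dpa replicate 2) and 11 fell. These shares were 31.6% and 28.9%, against 22.9% and 24.1% over all tested genes. In that list gpx3 (ENSDARG00000043342), a secreted glutathione peroxidase, went from 7.04, 8.9 and 7.9 to 0.101, 0.199 and 0.0781 CPM, whereas txnb, a thioredoxin, rose 10.3-fold.

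Several transcription factor families fell together. Genes of the circadian clock, a feedback loop of activators (CLOCK, BMAL) and repressors (PER, CRY, NR1D) that runs in most zebrafish cells and is set by light, fell in 21 of 33 tested members (median log2 change -1.45). The output factor hlfa (ENSDARG00000074752) was at 356, 383 and 299 CPM at 0 dpa and at 38.2, 21.9 and 46.8 CPM at 2 dpa, a fall of 9.71-fold (edgeR adjusted p = 2.27e-06). The repressor BHLHE40 fell 5.69-fold, PER3 3.99-fold and the activator CLOCK (ENSDARG00000003631) 1.95-fold. No BMAL gene was among the tested members of this list, so the activator arm is covered only in part. NR1D1 was at 8.11, 58.1 and 10.7 CPM at 0 dpa, highest in replicate 2, and at 2.97, 1.26 and 2.42 CPM at 2 dpa, and it was called in 5 of 13 alternative analyses. The time of day of sampling is not given in the sources used here, and its part in these values was not tested.

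Of 21 tested Kruppel-like factors, zinc finger regulators of epithelial and other differentiated cells, 15 fell and 1 (a KLF12 gene) rose, a rise not called without 0 dpa replicate 3 or without 2 dpa replicate 2. KLF3 (ENSDARG00000015495) was at 102, 80.4 and 103 CPM at 0 dpa and 9.9, 9.44 and 14.4 CPM at 2 dpa, a fall of 8.47-fold (edgeR adjusted p = 1.62e-06). KLF15 fell 8.65-fold, KLF9 8.08-fold and KLF4, a factor of outer epidermal layers, 11.7-fold. Sox genes fell in 16 of 21, and 2 rose, SOX4 (2.42-fold) and a SOX11 gene (4.7-fold). Hox genes, which record position along the body and the fin, fell in 15 of 28. HOXC11 (ENSDARG00000070351) fell 4.83-fold from 71.9 ± 13.4 to 14.9 ± 2.37 CPM, HOXC12 2.76-fold and HOXC13 1.84-fold. hoxa13b, given above, was not called. Immediate early genes, which respond to stimuli within minutes, fell in 10 of 24 and rose in 2. JUN fell 5.79-fold from 700.2 ± 236 to 121 ± 40.2 CPM, while its partner FOSL2 rose 5.75-fold from 79.9 ± 19.2 to 459.8 ± 139 CPM. FOS itself was at 37, 773 and 48.1 CPM at 0 dpa and at 277, 66.4 and 204 CPM at 2 dpa, with 0 dpa replicate 2 above every other library, and was not called. Without that library it was higher at 2 dpa (log2 change 2.10, edgeR adjusted p = 0.0232).

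**Figure D3:**
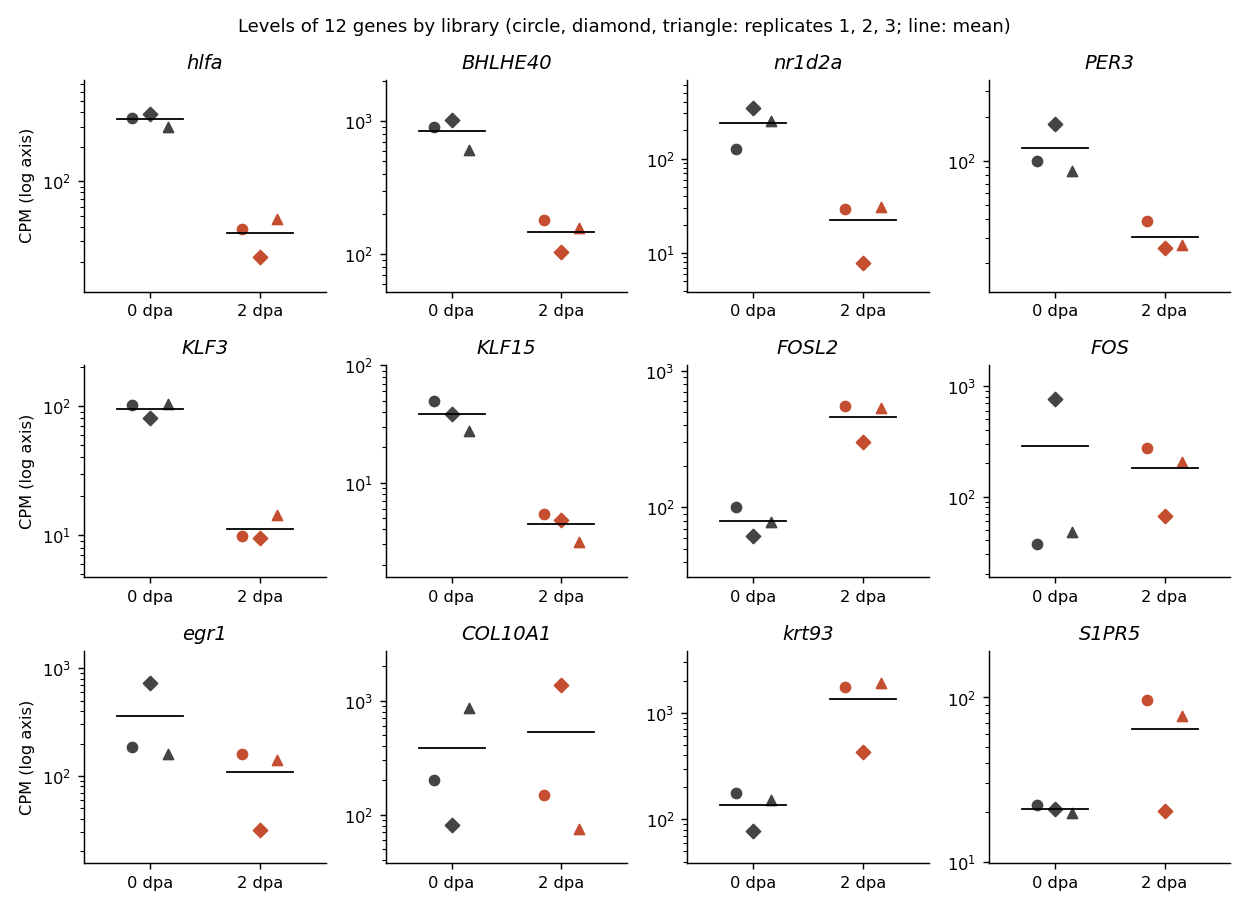
CPM on a log axis of 12 genes in each of the 3 libraries at 0 dpa (grey) and 2 dpa (red), with a line at each mean. hlfa, BHLHE40, nr1d2a, PER3, KLF3 and KLF15 were lower at 2 dpa with no overlap between the stages. In FOS and egr1 the 0 dpa diamond stands high. Genes in which the 2 dpa diamond (replicate 2) stands lowest of its stage include nr1d2a, egr1, krt93, S1PR5, FOS, hlfa and KLF3.

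Immune genes other than the well known wound cytokines fell more often than they rose in the lists that follow. The interferon and antiviral list, given above, differed, with 4 of 36 members risen and 2 fallen. Of 12 tested T lymphocyte markers 11 fell, and the list of 17 summed to between 268 and 424 CPM in uncut fin and between 89.9 and 111 CPM afterwards. The kinase ZAP70 (ENSDARG00000015752), which carries T cell receptor signals, was at 11.7, 18.8 and 9.65 CPM and then at 1.21, 2.99 and 1.87 CPM, a fall of 6.67-fold (edgeR adjusted p = 2.17e-04). cd8a, the co-receptor of cytotoxic T cells, fell 8.77-fold. The member that rose was tnfrsf9a, a receptor that activated T cells carry, by 10.4-fold from 0.538 ± 0.174 to 5.82 ± 1.52 CPM. Chemokines and their receptors fell in 22 of 38 and rose in 2. ccl19b fell 45.3-fold, while cxcr3.2, a receptor of macrophages in zebrafish, rose 2.56-fold from 5.5 ± 0.57 to 14.1 ± 6.51 CPM. Antigen presentation genes fell in 13 of 28 and rose in 2 (0 without 0 dpa replicate 1 or without 2 dpa replicate 2, and 1 without 0 dpa replicate 2 or 3 or without 2 dpa replicate 1). cd74a (ENSDARG00000009087), the invariant chain of class II molecules, was at 4596, 5776 and 4056 CPM at 0 dpa and at 438, 527 and 806 CPM at 2 dpa, and fell 8.15-fold. Complement and coagulation genes rose in 2 of 22 (4 without 0 dpa replicate 1) and fell in 11, led by cfd, the complement protease factor D, from 91.3, 83.9 and 181 to 1.26, 1.46 and 0.703 CPM, and MASP1, which starts the lectin pathway, from 49.4 ± 12.3 to 0.564 ± 0.159 CPM.

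Cell contact and membrane genes fell more often than they rose. Claudins and other tight junction genes, which seal epithelia, fell in 21 of 34 and rose in 2. oclnb (ENSDARG00000003091), an occludin, was at 343, 369.6 and 307 CPM before and 95.2, 75.6 and 76.9 CPM at 2 dpa, a fall of 4.11-fold, and cldn8.2 fell 4.11-fold. Gap junction genes fell in 9 of 16 (56.25%) and rose in 3 (18.75%, under the 22.9% over all tested genes), among the risen gja13.2 (2.71-fold). gja4, a connexin of arteries, fell 11.8-fold from 5.37 ± 1.3 to 0.429 ± 0.211 CPM. Potassium channels, which set membrane voltage, rose in 9 of 36 (4 without the 4 libraries numbered 2) and fell in 13. kcnn3, a calcium-activated channel, rose 3.24-fold from 2.54 ± 0.805 to 8.25 ± 0.437 CPM, and KCNQ5, a voltage-gated channel, fell 8.35-fold from 17.3 ± 1.72 to 2.09 ± 0.976 CPM. Among cadherins 11 of 37 rose and 14 fell. CDH2 (ENSDARG00000018693), the N-cadherin of mesenchyme and nerve, rose 3.22-fold from 75.5 ± 6.76 to 243 ± 76.8 CPM. Integrins and their partners rose in 11 of 42 and fell in 12, both near the shares over all tested genes (22.9% and 24.1%). TLN2 (ENSDARG00000017901), a talin that links integrins to actin, rose from 1.8, 0.259 and 1.28 CPM at 0 dpa to 40.0, 45.6 and 46 CPM at 2 dpa. ITGB4, the integrin of hemidesmosomes that tie epidermis to its basement membrane, fell 6.33-fold from 3140.1 ± 840.1 to 496 ± 80.6 CPM.

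Sugar chains of the matrix are laid down by glycosaminoglycan enzymes, of which 20 of 46 rose and 8 fell (5 without 0 dpa replicate 1). HAS1 (ENSDARG00000042983), a hyaluronan synthase, was at 0.737, 0.864 and 1.05 CPM and then at 18.9, 16.2 and 20.3 CPM, a rise of 21-fold (edgeR adjusted p = 1.98e-06). CHSY1, which extends chondroitin chains, rose 8.34-fold from 12.4 ± 3.77 to 103 ± 24.8 CPM. HS6ST1 (ENSDARG00000054754), a heparan sulfate sulfotransferase gene, fell from 1.67 ± 0.799 to 0.124 ± 0.0503 CPM.

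Axon guidance families, which also steer vessels and other migrating cells, were divided. Semaphorins, plexins and neuropilins rose in 14 of 42 and fell in 14. PLXNA2, a receptor, rose 4.68-fold from 14.8 ± 2.3 to 69.3 ± 6.42 CPM, and the ligand SEMA3C fell 15.7-fold from 11.1 ± 3.57 to 0.676 ± 0.262 CPM. Eph receptors and ephrins rose in 7 of 22 and fell in 9. epha7 (ENSDARG00000004635) was at 25.2, 26.3 and 20.7 CPM at 0 dpa and 207, 103 and 193 CPM at 2 dpa, a rise of 6.96-fold, while EPHA6 fell 7.7-fold. UNC5B, a netrin receptor, rose 8.52-fold from 10.6 ± 1.88 to 91.1 ± 19.1 CPM.

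Growth factor pathways likewise held both directions. With all libraries, the risen shares of the Fgf, BMP and TGF-beta, Notch and Hippo lists were near the 22.9% over all tested genes. Their fallen shares were above the 24.1% over all tested genes. Of 49 tested Wnt pathway genes 14 rose and 23 fell, with the nuclear effectors LEF1 (7.39-fold) and TCF7 (6.97-fold) higher and the secreted inhibitor WIF1 lower (21.1-fold, from 116 ± 13.9 to 5.45 ± 2.57 CPM). In the Fgf list 7 of 28 rose and 12 fell. The Fgf-induced factor etv5b rose 7.3-fold, and fgfbp2a, named for an Fgf-binding protein, was at 1336, 1426 and 651 CPM before and 12.2, 16.4 and 2.42 CPM after amputation. Among BMP and TGF-beta genes 15 of 66 rose and 22 fell, with BMP3, a ligand of bone, down 16.4-fold. Notch genes rose in 5 of 21 and fell in 10, and without 0 dpa replicate 1 these counts were 3 and 6, with 6 falls also without 2 dpa replicate 2. The ligand dlc fell 17-fold from 41.3 ± 5.56 to 2.44 ± 0.937 CPM and the receptor NOTCH1 4.35-fold. Insulin-like growth factor genes rose in 7 of 19 and fell in 6. Hippo pathway genes and targets of its effector YAP rose in 4 of 19 and fell in 8 (5 without 0 dpa replicate 2 or without 2 dpa replicate 2). The target CCN2 was at 257, 157 and 216 CPM at 0 dpa and 27.1, 30.3 and 13.7 CPM at 2 dpa, a fall of 8.84-fold.

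Some gene pairs held changes in both directions. The ancestor of teleost fish, to which the zebrafish belongs, duplicated its genome, and many genes survive as copies named a and b. Of 437 tested pairs with such names, 34 were called in opposite directions, 40 had both members risen and 64 both fallen. With all libraries, opposite pairs were thus fewer than pairs with both members risen and fewer than pairs with both fallen. The 34 were 7.78% of the pairs, where 22.9% of all tested genes rose and 24.1% fell, and they were 22 without 0 dpa replicate 1. For igf2, an insulin-like growth factor, igf2a (ENSDARG00000018643) was at 29.3, 29.6 and 25.2 CPM at 0 dpa and 7.69, 10.2 and 7.5 CPM at 2 dpa, while igf2b (ENSDARG00000033307) went from 19.2, 18.6 and 16.5 to 46.6, 70.0 and 80.5 CPM. The a copy fell 3.32-fold and the b copy rose 3.62-fold. In CPM igf2a was the higher at 0 dpa and igf2b at 2 dpa. CPM is not scaled to gene length, so it does not rank the 2 copies by transcript number. For jag1, a Notch ligand, jag1a rose 9.58-fold from 15.3 ± 2.8 to 147 ± 45.8 CPM and jag1b fell 2.71-fold from 174 ± 22 to 64.3 ± 9.98 CPM. cspg4ba and cspg4bb, named for a proteoglycan that in mammals marks pericytes, changed by 11.3-fold upward and 11.2-fold downward. Some of these names, such as thsd7, wnt9 and tnfrsf1, mark older vertebrate paralogs and not fish duplicates. Others among the 437, such as SDHA with SDHB and EIF3A with EIF3B, are not copies of 1 gene. The 437 and 34 therefore count pairs of names, not known genome duplicates.

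Among identifiers that share 1 symbol, a set examined after these results were seen, 769 pairs were tested and 68 (8.84%) were called in opposite directions. Both members rose in 57 of the pairs and both fell in 88. Over all tested genes 22.9% rose and 24.1% fell. How often unrelated genes would be called in opposite directions was not tested. One EDNRB gene, an endothelin receptor (ENSDARG00000089334), was at 15.1, 17.6 and 13.1 CPM at 0 dpa and 0.201, 0.532 and 0.0781 CPM at 2 dpa. The other (ENSDARG00000053498) was at 0.737, 1.81 and 0.93 and then 50.1, 24.7 and 58.2 CPM, the reverse pattern. Receptor genes named TGFBR2 did the same, with ENSDARG00000034541 down 5.03-fold from 239 ± 18.7 to 47.6 ± 12.2 CPM and ENSDARG00000059363 up 3.76-fold from 10.5 ± 2.12 to 39.6 ± 5.69 CPM. Counting could split reads between close copies, so the size of such differences is uncertain.

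**Figure D4:**
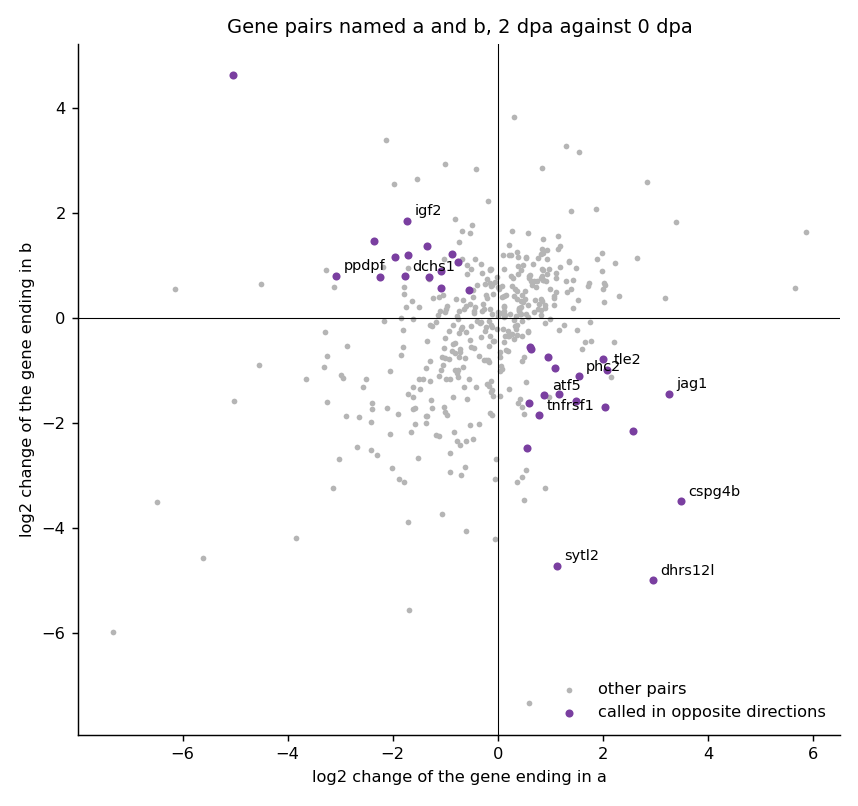
log2 change at 2 dpa against 0 dpa of the gene ending in a (horizontal) and in b (vertical), 1 point per pair, for 437 pairs. The 34 pairs called in opposite directions are purple and lie at the upper left and lower right.

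Replicate 2 of 2 dpa stood apart from the other 2 dpa libraries, and on the first principal component it was no nearer to uncut fin. On the second principal component, which carried 10.7% of the variance, it lay at -59.8 against 25.9 and 39.8 for replicates 1 and 3. On the first, its 93.95 was farther from the 0 dpa libraries than the 82.6 and 85.4 of the others. Spearman's rho across genes with the 0 dpa libraries was 0.807 to 0.853 for replicate 2 and 0.847 to 0.874 for replicates 1 and 3. In genes called without it, replicate 2 stood at a median of 0.998 of the way from the 0 dpa mean to the mean of the other 2 dpa libraries on log2 CPM (interquartile range 0.718 to 1.29, pseudocount 0.5). The same measure was 0.888 for replicate 1 and 0.887 for replicate 3. Over all tested genes it was 1.03, 0.858 and 0.881 for replicates 2, 1 and 3. Of the genes that rose, replicate 2 was the highest 2 dpa library in 52.6%, and of those that fell the lowest in 42.1%. The library numbered 2 had the highest TMM factor of its stage and the lowest share of counts in its 10 most abundant genes, at each of the 4 stages. At 2 dpa that factor was 1.13 against 0.980 and 1.00 and that share 15.9% against 18.6% and 19.4%, and at 3 dpa they were 1.08 and 15.8%.

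Single genes departed from the other libraries in both directions. Of 10479 tested genes with a mean of at least 5 CPM at 2 dpa, 348 were at least 2-fold above both other libraries in replicate 2 and 339 at least 2-fold below. Replicate 1 had 73 and 50 such genes and replicate 3 had 40 and 176. For 337 of the 348 genes the 3 dpa mean was also above the mean of replicates 1 and 3, and for 321 of the 339 it was also below. The same held for 65 of 73 and 43 of 50 genes of replicate 1, and for 31 of 40 and 21 of 176 of replicate 3. Set against the uncut fin, the 0 dpa mean was on the same side in 143 of the 348 and 167 of the 339 genes of replicate 2. It was so in 56 of 73 and 30 of 50 genes of replicate 1, and in 28 of 40 and 106 of 176 of replicate 3. Deviations of replicate 2 from its stage mean correlated across genes with those of 0 dpa replicates 1 to 3 at -0.0264, -0.225 and 0.231. For 2 dpa replicate 1 these values were 0.118, 0.135 and -0.224, and for replicate 3 they were -0.0772, 0.137 and -0.0626. Deviations within a stage cancel for each gene, so these values are not independent of each other.

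Genes far higher in replicate 2 included several of the extracellular matrix. COL10A1 (ENSDARG00000054753), a collagen of bone-forming cells in fish, was at 149.6, 1370.3 and 75.7 CPM at 2 dpa and 201, 81.1 and 868 CPM at 0 dpa. LOXL4, a lysyl oxidase that cross-links matrix, was at 1.21, 17 and 1.09 CPM, wfikkn2b, a secreted protease inhibitor, at 17.5, 122 and 2.73 CPM, and col5a2b, a fibrillar collagen, at 6.13, 44.5 and 2.97 CPM. Replicate 2 was several times above both others in all 4, and none of them was called at 2 dpa against 0 dpa. In the 29 tested fibroblast markers the median offset of replicate 2 from the other libraries was 0.98 on log2 CPM, against 0.02 over all genes, and the 37 members of the list summed to 6156, 13315 and 6790.1 CPM. At 0 dpa the sum was 6806, 4733 and 11468 CPM, highest in replicate 3. How much of each library was connective tissue was not tested.

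Genes far lower in replicate 2 included epidermal and rapidly induced ones. krt93 (ENSDARG00000044976), a keratin, was at 1741, 426 and 1909.8 CPM at 2 dpa and 176, 78 and 152 CPM at 0 dpa, so it rose even so. S1PR5, a receptor for sphingosine phosphate, rose and was at 96.1, 20.3 and 76.7 CPM, with replicate 2 at the level of uncut fin (22.2, 20.9 and 19.6 CPM). egr1, a rapidly induced factor, was at 159, 31.3 and 139.5 CPM at 2 dpa and 186, 721 and 161 CPM at 0 dpa, and its fall was called in 5 of 13 alternative analyses. At 2 dpa nr1d2a of the clock was at 29.4, 7.78 and 30.6 CPM. itgae.1, named for an integrin of lymphocytes within epithelium, was at 43.2, 5.72 and 37.7 CPM. Immediate early genes had a median offset of -0.90 in replicate 2, Kruppel-like factors of -0.52, desmosome genes of -0.44 and claudins of -0.36. Aminoacyl-tRNA synthetases had 0.49 and mitochondrial ribosomal proteins 0.39.

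**Figure D5:**
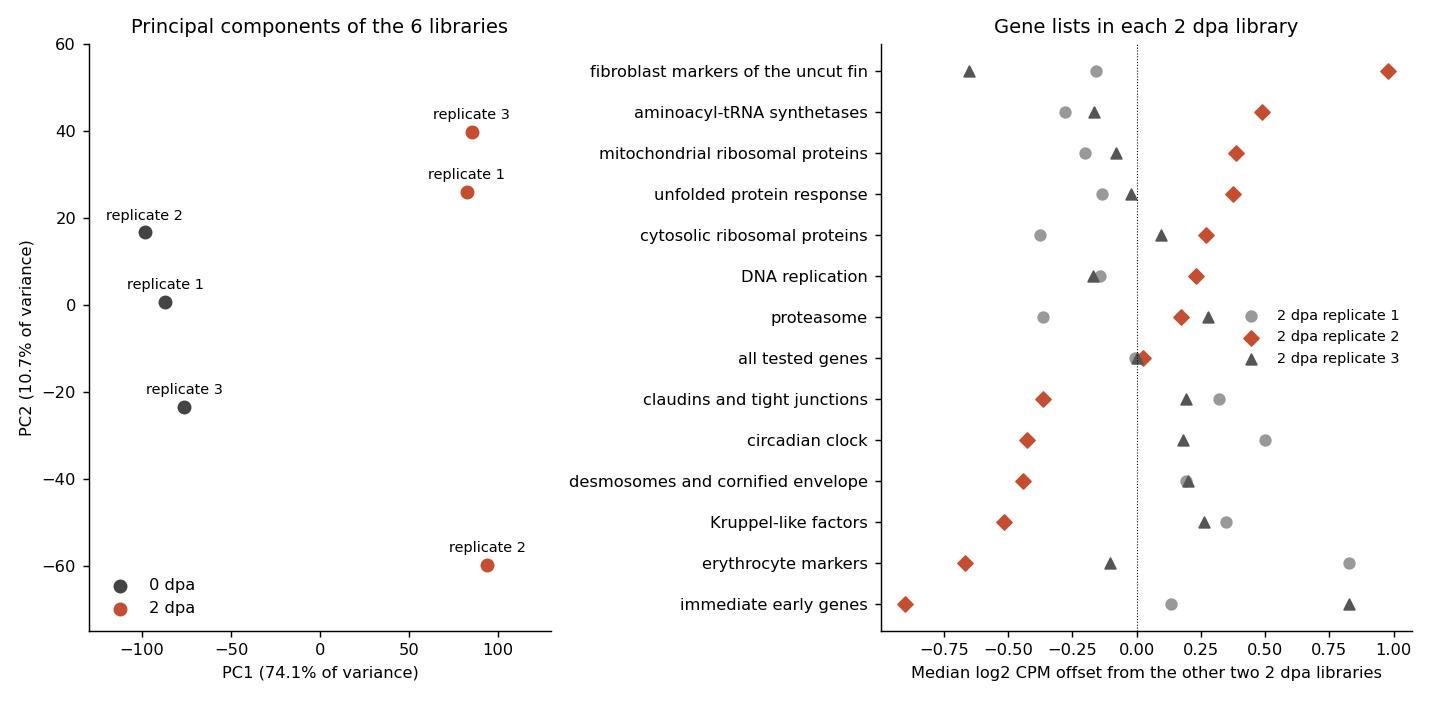
Left, first and second principal components of the 6 libraries, with 2 dpa replicate 2 at the bottom right. Right, for 14 groups of genes, the median offset on log2 CPM of each 2 dpa library from the mean of the other 2 dpa libraries, where replicate 2 (red diamond) ranges from -0.90 in immediate early genes to 0.98 in fibroblast markers.

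Calls lost and gained were counted with each 2 dpa library left out. Without replicate 2, 3209 of 17007 tested genes rose (18.9%) and 3825 fell (22.5%), and 3018 of the rises and 3461 of the falls were among those called with all libraries. Rises lost numbered 793 without replicate 2, 427 without replicate 1 and 469 without replicate 3, and falls lost numbered 549, 551 and 517. In the same order, 171, 237 and 210.0 rises and 274, 181 and 169 falls were gained. Among called genes, 463 moved by more than 1.5-fold without replicate 2, against 244 and 153 without replicates 1 and 3. Leaving out 0 dpa replicate 2 lost more calls than any of these, 986 rises and 791 falls. No gene called with all libraries was called in the other direction without 2 dpa replicate 2.

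Gene list counts were recomputed in the same way. Without 2 dpa replicate 2, aminoacyl-tRNA synthetases rose in 15 of 17, the proteasome in 32 of 45 and DNA replication genes in 23 of 34, and cytosolic ribosomal proteins fell in 41 of 70 and clock genes in 16 of 33. Fibroblast markers fell in 15 of 29 in place of 10, and the median log2 change of that list went from -0.79 to -1.63. Without all 4 libraries numbered 2, rises were counted in 11 mitochondrial ribosomal protein genes, 22 splicing factors, 6 fatty acid oxidation genes, 7 oxidative stress genes and 4 immediate early genes, and falls in 4 autophagy genes and 5 Hippo pathway genes, each more than 1.5 times from its count with all libraries. COL6A3, a chain of collagen VI, was not called with all libraries (351, 224 and 513 CPM at 0 dpa, 177, 582 and 109 CPM at 2 dpa) and was lower without replicate 2 (edgeR adjusted p = 0.00455). LUM, the proteoglycan lumican, fell 7.96-fold with all libraries and 9.53-fold without replicate 2, so its fall did not turn on that library. Ribosomal proteins were uneven in replicate 2, where RPL23 was at 122, 653 and 229.9 CPM and RPS13 at 7270.3, 2833 and 5340.2 CPM, high in the first and low in the second, although the list's sum was alike in the 3 libraries.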

How the data were processed

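RNA-seq was made from zebrafish caudal fin at 0, 2, 3 and 10 dpa, with 3 libraries a stage. The authors deposited raw counts per gene, which were used as deposited. The labels' protocols name the Lexogen SENSE mRNA kit and SOLiD sequencing, and the labels do not say whether the pools of a stage came from separate fish, so p-values measure the spread between these pools. Counts were tested with edgeR 4.0.16 (R 4.3.3) by a robust quasi-likelihood fit on all 12 libraries, with TMM factors, filterByExpr at a count minimum of 10 and Benjamini-Hochberg adjustment, and calls were made at an adjusted p under 0.05. The biological coefficient of variation was 26.9%. DESeq2 1.42.0, RLE factors, no filter, the 6 libraries alone, a replicate block and left-out libraries were alternatives. Symbols matched 21939 of 33737 identifiers. Genes were named by 4 rules, and others were added outside them. The rules took the 15 largest rises and falls outside well known wound genes and up to 3 each way per list. They also took 15 above and below for 2 dpa replicate 2, and 10 opposite pairs. Genes added outside the rules include some that share a symbol and uncalled list members such as PSMB10 and MARS1. Members and lists were chosen with earlier results of these data known. In data simulated for 2 dpa against 0 dpa over 16300 genes, the test recovered 1, 26, 50 and 50 of 50 genes changed 1.5-, 2-, 4- and 8-fold, with 9 false calls. The changed genes all averaged more than 50 counts a library, and they were fewer than the genes called in the data. No simulated library was made to depart from its stage as 2 dpa replicate 2 did. Total counts limit precision for low genes, and errors are SD over 3 libraries unless given as SE.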

Additional observations from a re-analysis of the deposited data

How the results depend on the processing

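The counts of genes that rose and fell at 2 dpa stayed within 1.5 times the values with all libraries in the 13 alternatives, from 2890.0 to 4133 rises and from 3248 to 4344 falls. RLE factors gave 3719 and 4082, no filter 3629 and 4049, the 6 libraries alone 3136 and 3454 and DESeq2 3905 and 4211. With the replicate number as a block, 4133 rose and 4344 fell. That block brought the biological coefficient of variation to 23.6%, against 26.9% without it. Deviations of same-numbered 0 and 2 dpa libraries correlated at 0.118, -0.225 and -0.0626. Whether the numbers pair the samples cannot be decided from so few values. A field in the deposited column names runs with the replicate number in all 12 libraries; what it stands for is not given in the sources used here, and its part was not tested. Opposite pairs numbered 22 to 32 when 1 library was left out, against 34 with all. Of 135 genes given above, COL10A1 was lower at 2 dpa without the 4 libraries numbered 2 (log2 change -2.23), and FOS, whose log2 change ran from -1.17 to 2.10 when 1 library was left out, was higher without 0 dpa replicate 2 (2.10) and without the 4 libraries numbered 2 (2.52); the cause was not tested. Of 157 list counts, 27 moved by more than 1.5 times without the 4 libraries numbered 2, 20 without 0 dpa replicate 1 and 10 without 2 dpa replicate 2. Low counts limit genes under a few CPM. About 2-fold was the size at which the simulated test recovered 26 of 50 genes, all averaging more than 50 counts a library, so it gives no limit for low genes.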
